A study of Mus musculus with 20 samples.

Results

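The transcripts examined here are those of 10 genes that the transcription factor p53 is known to switch on: Cdkn1a, Btg2, Mdm2, Ccng1, Trp53inp1, Bax, Phlda3, Eda2r, Gadd45a and Sesn2. They are 10 of the 53028 genes in the count table, and each was found by its mouse symbol. Cdkn1a was chosen by its own readout, a lower level in total liver RNA of mice given the SNORA73 LNA than of mice given the GFP LNA, and the other genes were taken because they are textbook p53 targets. The question was whether the fall of Cdkn1a was shared by them. The libraries come from livers of chow-fed male C57BL/6J mice. Each mouse received 3 intraperitoneal injections, every other day from 8 weeks of age, of 3 mg/kg of a locked nucleic acid (LNA, a chemically stabilized antisense oligonucleotide) directed at the small nucleolar RNA SNORA73 or at GFP, a sequence the mice do not carry, and livers were taken 2 days after the last injection. This age and timing are those of the study's chow diet methods. Its methods for liver ribosomes describe mice of 10 weeks that received cycloheximide, a blocker of translation, by tail vein 5 min before death. Total RNA came from liver lysed in the polysome buffer, and an effect of cycloheximide on the values was not tested. Both groups had 5 mice, and each of the 10 mice gave a library of total RNA (the transcriptome) and a library of RNA recovered from polysome fractions (the translatome), 20 libraries in all. The sample labels spell the target Snora37, while the series and the study name it SNORA73. Whole liver holds several cell types, so fewer cells of a type and less RNA per cell cannot be told apart in any value given here.

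Library depth was 20005389 to 42023390 estimated counts in total RNA and 14852951 to 33824659 in polysome RNA. Levels are given as CPM (counts scaled to the library total, with TMM factors). The knockdown itself could not be read, because Snora73a held at most 2 counts and Snora73b at most 4 in any of these poly(A)-selected libraries. The published analysis left out a mouse of each group that did not cluster with the others, without naming it, and an earlier analysis of these data pointed to mouse 9 (GFP LNA) and mouse 10 (SNORA73 LNA). Differences between the LNA groups are therefore given for the 10 genes over all 10 mice and again over the other 8, and for other genes over 10 mice unless stated. In total RNA, mouse 10 was the highest or the lowest of the 10 mice for 38.2% of genes and mouse 9 for 25.4%, against 10.4% to 27.2% for the others. In polysome RNA mouse 11 was the most often extreme, for 37.9% of genes, with 25.6% for mouse 10 and 19.7% for mouse 9, so these 2 mice did not stand apart there as they did in total RNA. Hepatocyte markers made up 4.42% to 7.24% of total RNA. Summed sinusoidal endothelial markers (6 of 6 detected) were 108 to 135 CPM in GFP LNA and 133 to 148 CPM in SNORA73 LNA livers in total RNA, and 92.7 to 103 against 110 to 124 CPM in polysome RNA. The ranges overlapped in total RNA and did not overlap in polysome RNA. The share of all genes that separated upward in polysome RNA was not counted, so nothing is read from these ranges. Among these markers, Stab2, a scavenger receptor of the sinusoid, was 1.06 ± 0.154 (SE) higher on the log2 scale in total RNA (edgeR quasi-likelihood test, adjusted p = 0.0497). Of all genes tested there, 0.0303% were called higher. In total RNA mouse 10 had the highest sums of Kupffer cell (216 CPM), neutrophil (13.1 CPM) and cholangiocyte markers (54.6 CPM, with Sox9 at 30.6 and Spp1 at 23.2). It had the lowest sums of stellate (221 CPM) and erythroid markers (231 CPM), and was at neither end for hepatocyte, endothelial and lymphocyte markers. Neutrophil markers were 2.59 to 6.96 CPM in GFP LNA livers and 1.63 to 13.1 CPM in SNORA73 LNA livers, with Ly6g at 0 in every total RNA library. The part of these cell types in the p53 target values was not tested.

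p53 is a DNA-binding factor held at a low level in healthy cells, because Mdm2 marks it for degradation. DNA damage, disturbed ribosome production and other stresses release it from Mdm2, and it then activates genes for cell cycle arrest, apoptosis, DNA repair and antioxidant defence, Mdm2 itself among them. In liver, Cdkn1a (p21) restrains the division of hepatocytes and also answers to signals other than p53, such as fasting and inflammation.

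p53 recognizes a pair of consensus decamers with a short spacer or none. RefSeq promoter windows (GRCm38.p6, 250 bases before to 50 after a start) were at hand for 9 of the 10 genes, Trp53inp1 being the exception, and Cdkn1a had a window at each of 2 starts. Every window was searched for the p53 consensus decamer, whose pattern reads the same on both strands, and for pairs of decamers with a spacer of 0 to 13 bases. The upstream Cdkn1a window and the Ccng1 window are printed because only they, among the windows of these genes, held a pair when 1 mismatch per decamer was allowed. Capitals mark the decamers of every such pair, and a run of capitals longer than 10 bases is a pair without spacer.
Cdkn1a, upstream start, chr17:29090729-29091028, plus strand: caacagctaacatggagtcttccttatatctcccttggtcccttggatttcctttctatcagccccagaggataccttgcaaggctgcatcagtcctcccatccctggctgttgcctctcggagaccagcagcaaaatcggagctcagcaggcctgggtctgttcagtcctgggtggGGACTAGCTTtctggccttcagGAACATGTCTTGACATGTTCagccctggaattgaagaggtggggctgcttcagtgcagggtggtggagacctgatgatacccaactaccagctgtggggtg
Ccng1, chr11:40755237-40755536, minus strand: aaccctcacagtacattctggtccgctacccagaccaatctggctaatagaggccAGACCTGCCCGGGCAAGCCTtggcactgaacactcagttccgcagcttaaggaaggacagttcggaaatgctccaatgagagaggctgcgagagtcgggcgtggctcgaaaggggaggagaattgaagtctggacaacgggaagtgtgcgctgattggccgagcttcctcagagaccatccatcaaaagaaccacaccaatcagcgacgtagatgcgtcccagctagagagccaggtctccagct
In the Cdkn1a window, a pair without mismatch and with a spacer of 12 bases began 73 bases before the start, and a pair with 1 mismatch and no spacer began 51 bases before it. The downstream Cdkn1a window held no decamer. The Ccng1 pair had 1 mismatch, no spacer, and began 195 bases before the start. Single decamers stood in the windows of Mdm2 (GAACTTGCCT), Bax (AGGCAAGCTT) and Gadd45a (GGGCTAGCCC), and none in those of Btg2, Phlda3, Eda2r and Sesn2. Of all 32851 RefSeq windows, 8.36% held a decamer, 0.0731% a pair without mismatch and 2.71% a pair with up to 1 mismatch per decamer. These matches describe the letters in the windows and do not show where p53 binds. Known p53 elements of some of these genes, such as the intronic one of Mdm2, lie outside them.

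Cdkn1a (ENSMUSG00000023067, chromosome 17, 29090979 to 29100722), an inhibitor of cyclin-dependent kinases, was lower in most but not all SNORA73 LNA livers. In total RNA it stood at 20.4, 12.9, 13.6, 18.6 and 3.11 CPM in GFP LNA mice 1, 2, 3, 8 and 9. In SNORA73 LNA mice 4, 6, 11, 12 and 10 it stood at 9.75, 5.6, 4.71, 6.16 and 35.2 CPM. Mouse 9 was thus the lowest and mouse 10 the highest of all 10, each against the direction of its own group. Over 10 mice the means were 13.7 ± 6.73 CPM (SD, n = 5) and 12.3 ± 12.9 CPM (SD, n = 5), a log2 difference of -0.17 ± 0.575 (SE). Over the 8 mice the means were 16.4 ± 3.68 CPM and 6.56 ± 2.21 CPM (SD, n = 4 each), a log2 difference of -1.32 ± 0.221 (SE), or 0.400 of the control level, and every SNORA73 LNA mouse was below every GFP LNA mouse. These values chose the gene, so no test is given for them. Such separation in that direction was found for 3.17% of the 13017 genes tested over the 8 mice, and 0.161% passed a false discovery rate of 0.05 as lower.

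Polysome RNA of the same livers gave almost the same Cdkn1a levels. The GFP LNA mice 1, 2, 3, 8 and 9 had 18.7, 13.3, 16.1, 17.4 and 2.66 CPM. The SNORA73 LNA mice 4, 6, 11, 12 and 10 had 12.1, 6, 5.96, 6.74 and 36.5 CPM. The order of the 10 mice was the same in both RNAs (Spearman rho = 1, Pearson r = 0.986 on log2 CPM, r = 0.983 without mice 9 and 10), and both permutation p-values were 1e-05, the smallest these permutations can give (adjusted 1e-04 over 10 genes). Over 10 mice the polysome difference was -0.01 ± 0.55 (SE) on the log2 scale, with a 95% interval from -1.20 to 1.17. Over the 8 mice it was -1.08 ± 0.247 (SE), and again no SNORA73 LNA mouse reached the lowest GFP LNA mouse, a separation shown by 3.63% of the 12825 genes tested. As the mice and the order are those by which the gene was chosen, the polysome values are not a separate test of its fall.

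**Figure D1:**
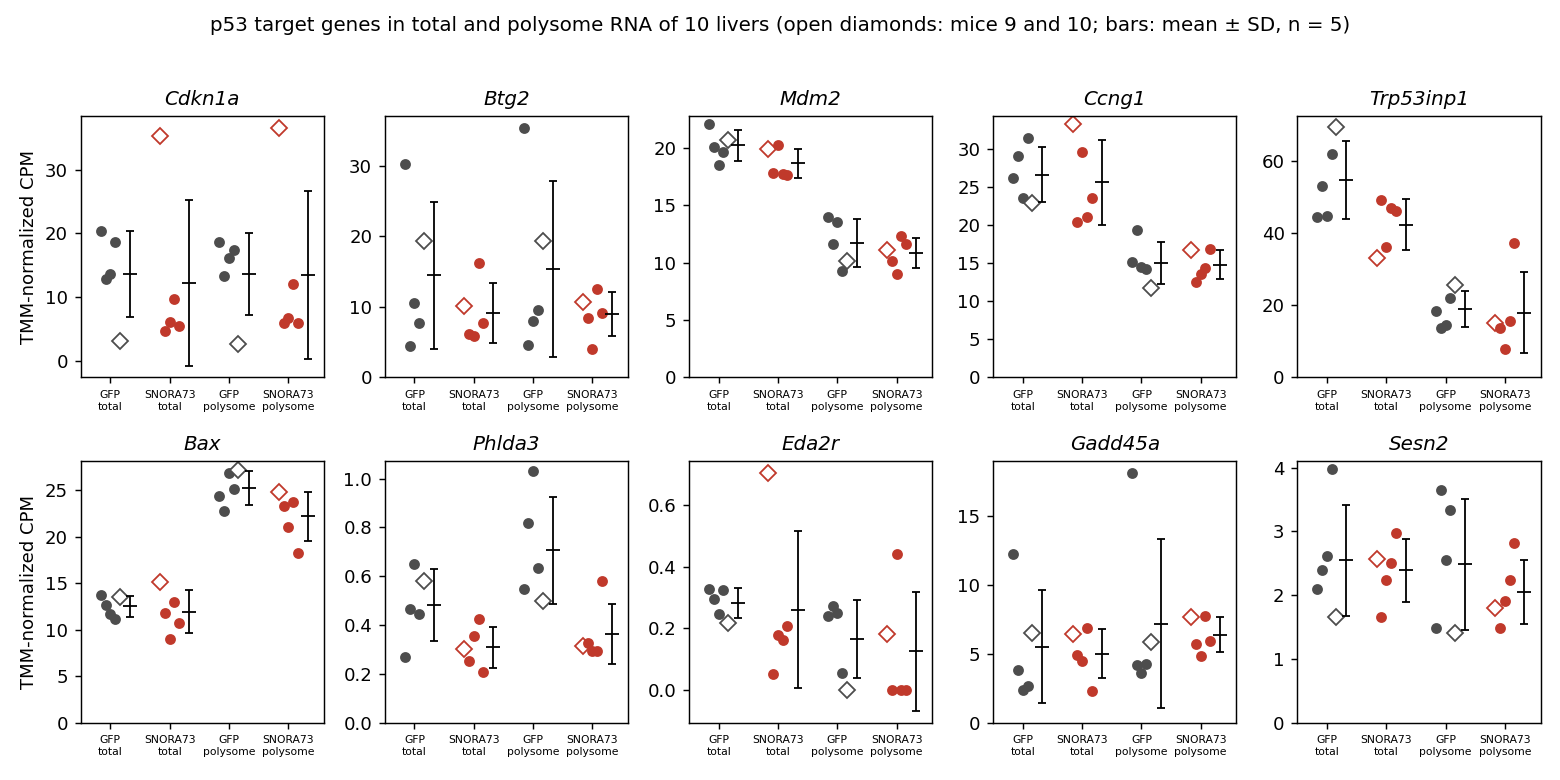
TMM-normalized CPM (linear axes) of the 10 p53 target genes in each mouse, with GFP LNA in grey and SNORA73 LNA in red, total RNA on the left and polysome RNA on the right of each panel. Open diamonds are mice 9 and 10, and black bars are the mean ± SD of all 5 mice; for Cdkn1a the diamonds lie at 3.11 and 35.2 CPM in total RNA, outside the range of the other mice of their own group.

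Btg2 (ENSMUSG00000020423, chromosome 1, 134074865 to 134079155), which slows cell cycle entry and is an immediate early gene as well as a p53 target, varied widely between mice of the same group. In total RNA it stood at 30.3, 4.47, 10.5, 7.74 and 19.4 CPM in GFP LNA mice 1, 2, 3, 8 and 9 and at 16.2, 7.65, 6.17, 5.84 and 10.1 CPM in SNORA73 LNA mice 4, 6, 11, 12 and 10. The lowest value of all belonged to a GFP LNA mouse, so the groups overlapped. In polysome RNA the values were 35.4, 4.55, 8.05, 9.58 and 19.3 CPM against 12.6, 9.1, 8.47, 4.1 and 10.7 CPM. The log2 difference was -0.66 ± 0.456 (SE) in total RNA and -0.77 ± 0.464 (SE) in polysome RNA (edgeR, adjusted p = 0.506, 95% interval -1.77 to 0.23). They were -0.58 ± 0.524 (SE) and -0.74 ± 0.552 (SE) over the 8 mice. Without GFP LNA mouse 1, which had the highest level, the differences were -0.20 and -0.20.

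Among the feedback genes, Mdm2 (ENSMUSG00000020184, chromosome 10, 117688875 to 117710758), the ubiquitin ligase that keeps p53 low, varied little across mice in total RNA. Its total RNA was 22.1, 20.1, 18.5, 19.6 and 20.7 CPM in GFP LNA mice 1, 2, 3, 8 and 9 and 17.7, 17.6, 17.8, 20.2 and 19.9 CPM in SNORA73 LNA mice 4, 6, 11, 12 and 10. The groups overlapped, and mice 9 and 10 lay within the range of the others. In polysome RNA it was 14, 11.6, 13.5, 9.26 and 10.1 CPM against 12.3, 11.6, 10.1, 9.01 and 11.1 CPM. The log2 difference was -0.12 ± 0.0822 (SE) in total RNA and -0.11 ± 0.159 (SE) in polysome RNA (edgeR, adjusted p = 0.811, 95% interval -0.45 to 0.23), and over the 8 mice it was -0.13 ± 0.0919 (SE) and -0.16 ± 0.19 (SE).

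Ccng1 (ENSMUSG00000020326, chromosome 11, 40748552 to 40755309) encodes cyclin G1, which recruits a phosphatase to Mdm2. Its total RNA was 26.1, 29.1, 23.5, 31.4 and 22.9 CPM in GFP LNA mice 1, 2, 3, 8 and 9 and 21.1, 23.6, 20.4, 29.6 and 33.2 CPM in SNORA73 LNA mice 4, 6, 11, 12 and 10. Mouse 10 was the highest of the 10 mice and mouse 9 the lowest of its group, as for Cdkn1a, but over a range of 1.63-fold or less within a group. Its polysome RNA was 15.2, 19.4, 14.5, 14.2 and 11.7 CPM against 14.4, 16.8, 12.5, 13.6 and 16.7 CPM. The log2 difference was -0.06 ± 0.147 (SE) in total RNA and -0.01 ± 0.153 (SE) in polysome RNA (edgeR, adjusted p = 0.978, 95% interval -0.34 to 0.31), and over the 8 mice -0.22 ± 0.135 (SE) and -0.13 ± 0.163 (SE). The groups overlapped in both RNAs, with and without mice 9 and 10.

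Trp53inp1 (ENSMUSG00000028211, chromosome 4, 11156441 to 11174379), a stress protein that promotes the phosphorylation of p53, ran the other way in mice 9 and 10. In total RNA it was 44.6, 53.2, 44.9, 62 and 69.4 CPM in GFP LNA mice 1, 2, 3, 8 and 9 and 46.9, 46.2, 49.3, 36.2 and 33.3 CPM in SNORA73 LNA mice 4, 6, 11, 12 and 10. Mouse 9 was the highest and mouse 10 the lowest of the 10. In polysome RNA it was 18.5, 13.8, 14.7, 22 and 25.7 CPM against 15.8, 37.4, 13.8, 7.91 and 15.2 CPM, with mouse 6 far above the rest of its group. The log2 difference was -0.37 ± 0.152 (SE) in total RNA over 10 mice and -0.20 ± 0.133 (SE) over 8. In polysome RNA it was -0.07 ± 0.328 (SE) over 10 mice (edgeR, adjusted p = 0.955, 95% interval -0.77 to 0.64) and 0.14 ± 0.375 (SE) over 8, so its sign depended on the mice.

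Of the genes for apoptosis and survival signalling, Bax (ENSMUSG00000003873, chromosome 7, 45461695 to 45466903), whose protein opens the outer mitochondrial membrane, differed little between the groups. Its total RNA was 13.7, 12.7, 11.7, 11.1 and 13.5 CPM in GFP LNA mice 1, 2, 3, 8 and 9 and 13, 10.7, 11.8, 9.03 and 15.1 CPM in SNORA73 LNA mice 4, 6, 11, 12 and 10. The groups overlapped, and mouse 10 was again the highest. Its polysome RNA was 24.4, 22.8, 26.8, 25.1 and 27.2 CPM against 23.7, 18.2, 23.3, 21 and 24.8 CPM. The log2 difference was -0.07 ± 0.132 (SE) in total RNA and -0.19 ± 0.117 (SE) in polysome RNA (edgeR, adjusted p = 0.522, 95% interval -0.44 to 0.07), and over the 8 mice -0.14 ± 0.125 (SE) and -0.20 ± 0.127 (SE).

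Phlda3 (ENSMUSG00000041801, chromosome 1, 135766085 to 135769134), which blocks activation of the survival kinase Akt, was scarce. In total RNA it held 5 to 29 counts per library and did not pass the filter of more than 0.5 CPM in at least 4 libraries. Its level there was 0.267, 0.464, 0.651, 0.446 and 0.579 CPM in GFP LNA mice 1, 2, 3, 8 and 9 and 0.426, 0.208, 0.251, 0.354 and 0.302 CPM in SNORA73 LNA mice 4, 6, 11, 12 and 10, with overlap. In polysome RNA it was 0.549, 0.819, 1.03, 0.635 and 0.498 CPM against 0.294, 0.581, 0.328, 0.293 and 0.315 CPM, so mouse 6 alone of its group reached the GFP LNA range. The polysome log2 difference was -0.95 ± 0.389 (SE) over 10 mice (edgeR, adjusted p = 0.316, 95% interval -1.78 to -0.11 before adjustment) and -0.98 ± 0.456 (SE) over 8. It passed the filter there mostly through the GFP LNA libraries, where it was higher, so its direction is no support for a shared fall.

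Eda2r (ENSMUSG00000034457, chromosome X, 97333837 to 97377234), a receptor of the TNF receptor family, was at the limit of detection, with 1 to 14 counts in total RNA and 0 to 9 in polysome RNA, and it passed the filter in neither. Its total RNA was 0.326, 0.293, 0.247, 0.324 and 0.217 CPM in GFP LNA mice 1, 2, 3, 8 and 9 and 0.16, 0.208, 0.0501, 0.177 and 0.704 CPM in SNORA73 LNA mice 4, 6, 11, 12 and 10. Without mice 9 and 10, all 4 SNORA73 LNA mice were below all 4 GFP LNA mice, as for Cdkn1a and for 3.17% of the genes tested, and with them mouse 10 was the highest of the 10. In polysome RNA 4 of the 10 libraries held no count, and the groups overlapped. No fold change is given for Eda2r, because several libraries held 3 counts or fewer.

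The stress sensors did not separate the groups. Gadd45a (ENSMUSG00000036390, chromosome 6, 67035096 to 67037407), which acts in DNA repair and in stress kinase signalling, was 12.2, 3.81, 2.38, 2.67 and 6.48 CPM in total RNA of GFP LNA mice 1, 2, 3, 8 and 9 and 6.87, 2.32, 4.91, 4.5 and 6.44 CPM in SNORA73 LNA mice 4, 6, 11, 12 and 10. Its polysome RNA was 18.1, 4.18, 3.58, 4.23 and 5.85 CPM against 7.7, 5.95, 5.68, 4.83 and 7.65 CPM. GFP LNA mouse 1 stood far above all others in both RNAs, as it did for Btg2. The log2 difference in polysome RNA was -0.18 ± 0.403 (SE) with mouse 1 (edgeR, adjusted p = 0.884, 95% interval -1.05 to 0.69) and 0.51 without it, and in total RNA -0.15 ± 0.433 (SE) with it and 0.38 without it, so its sign changed with this mouse. Over the 8 mice the difference was -0.20 ± 0.499 (SE) in total RNA and -0.32 ± 0.477 (SE) in polysome RNA.

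Sesn2 (ENSMUSG00000028893, chromosome 4, 132492804 to 132510456), a sestrin that restrains mTORC1 when amino acids or redox balance fail, was 2.1, 2.4, 2.61, 3.97 and 1.66 CPM in total RNA of GFP LNA mice 1, 2, 3, 8 and 9 and 2.5, 2.98, 1.65, 2.23 and 2.57 CPM in SNORA73 LNA mice 4, 6, 11, 12 and 10. Its polysome RNA was 1.48, 3.64, 2.55, 3.33 and 1.41 CPM against 2.23, 2.81, 1.48, 1.9 and 1.8 CPM. The groups overlapped in both RNAs. The log2 difference was -0.09 ± 0.233 (SE) in total RNA and -0.27 ± 0.308 (SE) in polysome RNA (edgeR, adjusted p = 0.748, 95% interval -0.93 to 0.39), and over the 8 mice -0.22 ± 0.237 (SE) and -0.36 ± 0.319 (SE).

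Beside Cdkn1a, whose total RNA difference over the 8 mice (-1.32) is the one that chose it, 7 of the genes passed the filter in total RNA. Over the same mice they differed by -0.58 (Btg2) to -0.13 (Mdm2) on the log2 scale, with a median of -0.20, while the median of all 13017 genes was 0.01. The 95% interval of Btg2, -1.73 to 0.57, included the value of Cdkn1a. Over all 10 mice their median was -0.12, with values from -0.66 to -0.06, and that of all 13195 genes was 0.01. All 7 were below 0 in either choice of mice, but over 10 mice the removal of a single mouse brought 4 of them (Ccng1, Bax, Gadd45a and Sesn2) to 0 or above. Of all genes tested in total RNA, 0.0303% were called higher and 0% lower over 10 mice, and 0.553% higher and 0.161% lower over 8 (higher requires a log2 difference of at least 0.5).

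In polysome RNA, which was not used to choose the genes, none of the 9 that passed the filter was called over 10 or over 8 mice by edgeR, and none over 10 mice by limma-voom or DESeq2. DESeq2 gave no adjusted p for Phlda3 (log2 difference -0.947) and so could not call it. Among the 8 genes other than Cdkn1a, 1 (Phlda3) was lower at an unadjusted p under 0.05 over 10 mice and 0 over 8, and 0 were higher. Phlda3 passed the filter mostly through the higher group, and at the same cut 695 of all 13060 genes were lower and 1060 higher over 10 mice, so nothing is read from this count. The share of all genes called higher was 0.0153% over 10 mice and 0.211% over 8, and the share called lower was 0% and 0.0312%. Over the 8 mice, the polysome difference of Cdkn1a was -1.08 with a 95% interval of -1.62 to -0.54. The intervals of Ccng1 (-0.49 to 0.22) and Bax (-0.47 to 0.08) did not reach it. Those of Mdm2 (-0.57 to 0.26), Trp53inp1 (-0.68 to 0.96), Sesn2 (-1.06 to 0.34), Btg2 (-1.95 to 0.46), Phlda3 (-1.98 to 0.01) and Gadd45a (-1.36 to 0.73) overlapped it, and the differences between genes were not tested. Cdkn1a was chosen for its fall in these same mice, so its interval is no neutral yardstick. Whether the other genes shared the fall is not judged from these overlaps.

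**Figure D2:**
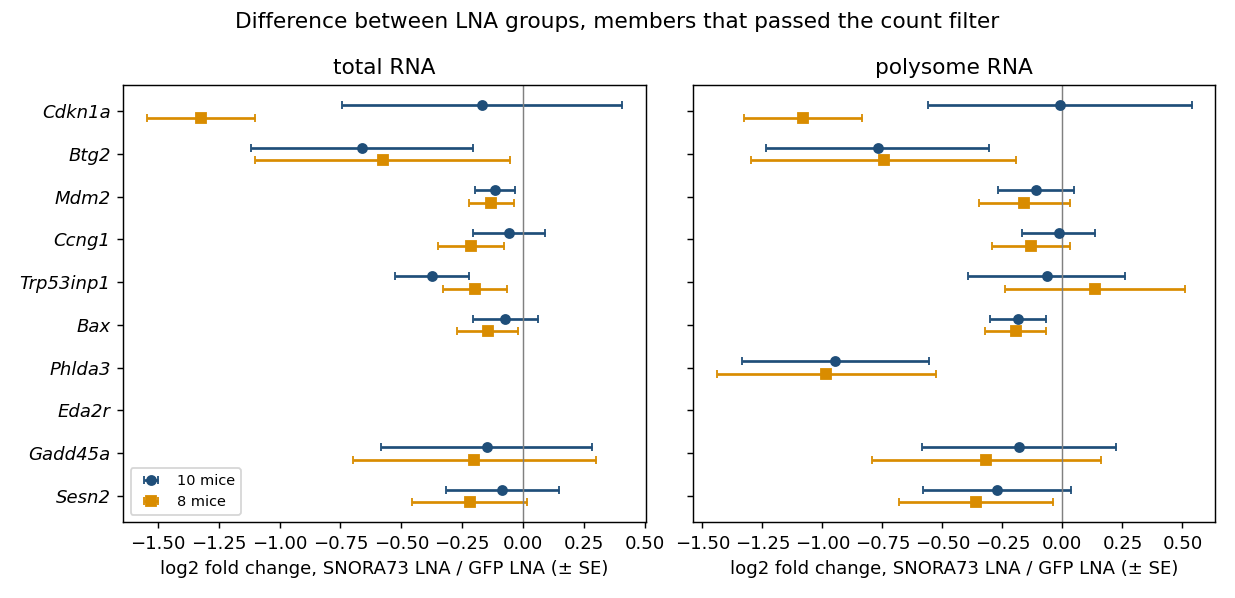
Log2 fold change (SNORA73 LNA over GFP LNA, ± SE from the edgeR fit) of the p53 target genes that passed the count filter, in total RNA and in polysome RNA, over 10 mice (blue circles) and over 8 mice (orange squares). Cdkn1a moves from -0.17 to -1.32 in total RNA when mice 9 and 10 are left out, while Mdm2 stays at -0.12 and -0.13.

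The genes differed widely in how much they varied between mice of a group. The biological coefficient of variation in total RNA over 10 mice was 61.6% for Cdkn1a, 48.8% for Btg2 and 46.5% for Gadd45a, above that of 98.7%, 97.6% and 97.1% of all genes. It was 11% for Mdm2, higher than for only 1.53% of genes, and 15.4% to 24.6% for Bax, Ccng1, Trp53inp1 and Sesn2, against a median of 17.3%. Over the 8 mice the value of Cdkn1a was 21.6%, while those of Btg2 and Gadd45a were 49.7% and 47.4%. Cdkn1a still varied more than 81.9% of genes there (median 14.5%), and Btg2 and Gadd45a more than 98.8% and 98.7%. Cdkn1a was chosen for its fall over these 8 mice, a choice that favours a small spread among them. The contrast with Btg2 and Gadd45a is therefore not read as a trait of Cdkn1a.

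Whether Cdkn1a and the other genes varied together was read from the 10 total RNA libraries, on the log2 CPM scale. Eda2r followed Cdkn1a most closely (Pearson r = 0.81, permutation p = 0.00268, adjusted over 9 genes 0.0241; Spearman rho = 0.82, permutation p = 0.0057, adjusted 0.0513). Without mice 9 and 10, the mice farthest from the median of Cdkn1a, r was 0.86. These values include the LNA group difference by which Cdkn1a was chosen, and without mice 9 and 10 both genes separated the groups completely. Centring on the mean of each LNA group removes that difference, and r was then 0.80 but did not pass the adjustment (permutation p = 0.00901, adjusted 0.0811). In polysome RNA r was 0.38 (permutation p = 0.278, adjusted 0.703). With 1 to 14 counts of Eda2r per library this relation rests on very few reads.

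Ccng1 came next (r = 0.65, permutation p = 0.0434, adjusted 0.195; rho = 0.67, permutation p = 0.0395, adjusted 0.178), and r was 0.48 without mice 9 and 10. Sesn2, Bax and Mdm2 had r of 0.52, 0.43 and 0.30, and Gadd45a, Btg2 and Phlda3 0.15, 0.12 and -0.04. Trp53inp1 had r = -0.42, which became 0.42 without mice 9 and 10 and so rested on those mice. Only the uncentred Pearson correlation of Eda2r passed the adjustment over 9 genes, and its Spearman and centred correlations did not. Of all 13183 genes compared, 7.08% had r above 0.6 and 7.42% below -0.6 with Cdkn1a, and 1 of the 7 p53 target genes among them, Ccng1, was above 0.6.

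**Figure D3:**
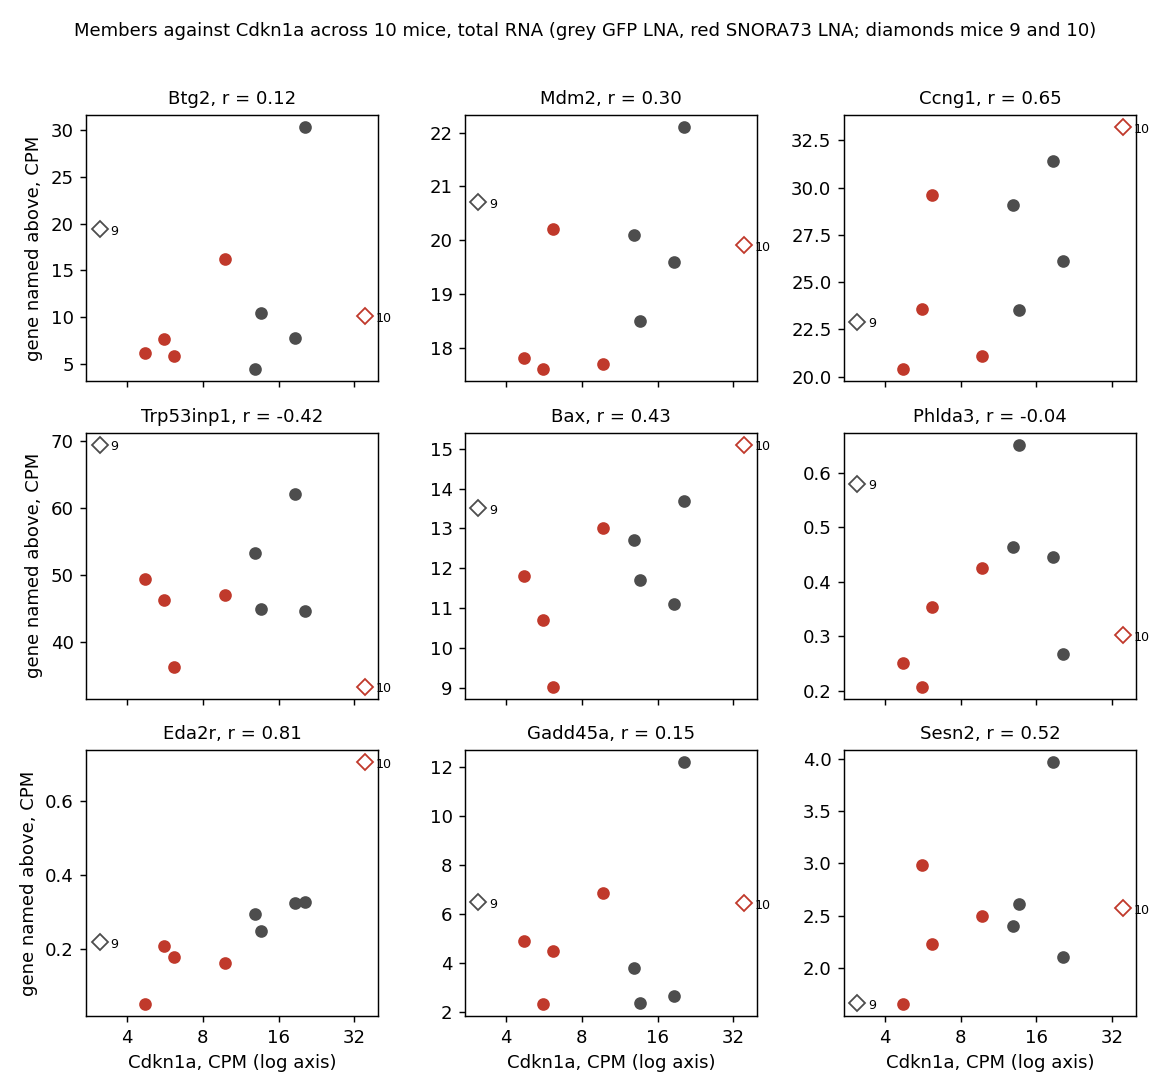
Level of each of the other 9 p53 target genes (CPM, linear axis) against that of Cdkn1a (CPM, log2 axis) in total RNA of the 10 mice, with Pearson's r on log2 CPM in each title. GFP LNA mice are grey and SNORA73 LNA mice red, and the diamonds are mice 9 and 10, which lie at the 2 ends of the Cdkn1a axis and carry the highest and the lowest value of Trp53inp1.

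The 10 protein-coding genes whose total RNA followed Cdkn1a most closely, of 9708 with a mean of at least 2 CPM, were not among the listed p53 targets. They were Ogfod1 (r = 0.95), Zfp518a (0.95), Gbp6 (0.95), Parp9 (0.94), Ik (0.94), Dtx4 (0.93), Sec24d (0.93), Adpgk (0.92), Adap2 (0.91) and Nudcd1 (0.91). Gbp6, a guanylate-binding protein induced by interferon, was 7.27 CPM in mouse 9 and 31.5 CPM in mouse 10, 20.1 to 23 CPM in the other GFP LNA mice and 10.3 to 11.2 CPM in the other SNORA73 LNA mice. In polysome RNA it kept r = 0.86, and Dtx4 (0.80), Adpgk (0.71), Parp9 (0.69), Sec24d (0.64), Nudcd1 (0.59), Adap2 (0.54) and Zfp518a (0.45) were positive too, while Ik (-0.15) and Ogfod1 (-0.24) were not. These genes were picked for their r among all candidates over the same 10 libraries, so the values describe and do not test. At the other end, 2 listed p53 targets named after their values were seen, Sulf2 (r = -0.95 in total and -0.61 in polysome RNA), with the lowest r of all 13183 genes, and Ankra2 (-0.94 and -0.12), ran opposite to Cdkn1a. Of the 39 other p53 targets compared, the highest r was that of Fas, a death receptor (0.75 and 0.69), and the median was -0.02.

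The ratio of polysome to total RNA of a gene is its translational efficiency, and an interaction term fitted to the 20 libraries tested whether this ratio depended on the LNA. No p53 target gene passed over 10 or over 8 mice (edgeR, adjusted p = 1 for each of the 9 tested, none at an unadjusted p under 0.05), and none was called by limma-voom or DESeq2, while 0.00725% of all 13795 genes passed. Cdkn1a had an interaction of 0.17 ± 0.872 (SE) on the log2 scale. With the mouse as a replicate block, which removes the spread between animals, it was 0.20 ± 0.118 (SE, adjusted p = 0.689 by edgeR). The remaining genes lay between -0.29 (Phlda3) and 0.18 (Trp53inp1). The total RNA difference by which Cdkn1a was chosen enters its interaction, so the results for Cdkn1a are no independent test and nothing is read from them.

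Polysome and total RNA differed strongly for some of these genes in both LNA groups alike. Bax was higher in polysome RNA in all 10 mice, by 0.68 to 1.11 on the log2 scale (fit 0.92 ± 0.0835 SE, edgeR adjusted p = 6.61e-09). Mdm2 was lower in all 10, by -1.18 to -0.51 (fit -0.82 ± 0.0794 SE, adjusted p = 1.73e-08). Both differences held in every mouse of either LNA group.

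Ccng1 was lower in polysome RNA in all 10 mice, by -1.16 to -0.49 (fit -0.84 ± 0.104 SE, edgeR adjusted p = 5.42e-07), and so was Trp53inp1, by -2.18 to -0.32 (fit -1.41 ± 0.2 SE, adjusted p = 3.47e-06). All 3 feedback genes were thus called lower in polysome RNA, as were 27% of all 13795 genes, so no trait of feedback genes is read from this. Cdkn1a (0.04 ± 0.425 SE, adjusted p = 0.951), Btg2 (0.01 ± 0.347 SE, adjusted p = 0.978), Phlda3 (0.39 ± 0.232 SE, adjusted p = 0.163) and Sesn2 (-0.17 ± 0.192 SE, adjusted p = 0.478) were not called by edgeR.

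Gadd45a was above 0 in 9 of 10 mice, at 0.34 ± 0.315 (SE, edgeR adjusted p = 0.37), and it was called with the replicate block, at 0.34 ± 0.121 (SE, adjusted p = 0.0197). Over all 13795 genes, 28.7% were called higher and 27% lower in polysome RNA, and 33.1% and 32.2% with the replicate block, so 1 higher and 3 lower of 9 genes is near the share of all genes. CPM are shares of each library, so these are relative contents of the 2 RNA pools.

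**Figure D4:**
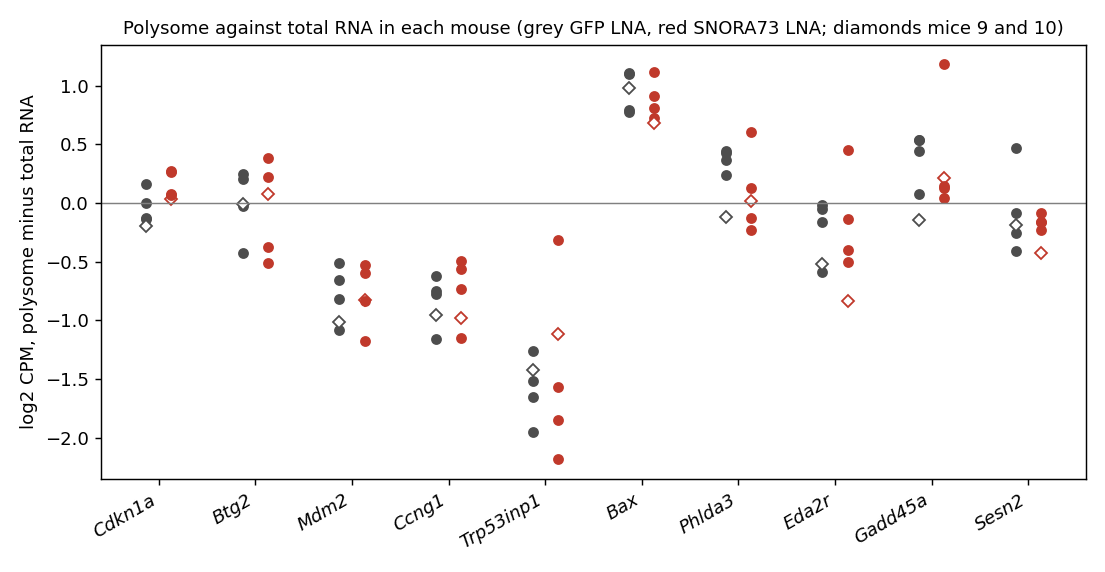
Log2 CPM in polysome RNA minus log2 CPM in total RNA of the same mouse (10 points per gene, GFP LNA grey, SNORA73 LNA red, diamonds mice 9 and 10). Bax lies at 0.68 to 1.11 in every mouse and Mdm2, Ccng1 and Trp53inp1 lie below 0 in every mouse, while Cdkn1a lies between -0.20 and 0.27.

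Polysome and total levels of a gene did not follow each other equally across mice. Besides Cdkn1a, Btg2 (r = 0.94, permutation p = 3e-05, adjusted 0.00015), Gadd45a (r = 0.84, permutation p = 0.00136, adjusted 0.00453) and Sesn2 (r = 0.77, permutation p = 0.00662, adjusted 0.0166) followed, with Spearman rho of 0.87, 0.71 and 0.73 (permutation p = 0.00229, 0.026 and 0.0212, adjusted 0.0114, 0.065 and 0.065). Without the 2 mice farthest from the median of each gene, r was 0.81, 0.92 and 0.67. The other 6 had r from -0.00 (Mdm2) to 0.55 (Bax), and none passed the adjustment over 10 genes (permutation tests, adjusted p of 0.19 or more). These r were not centred on LNA group and depend on how much a gene varied. The coefficient of variation in total RNA was 61.6%, 48.8% and 46.5% for Cdkn1a, Btg2 and Gadd45a and 11% for Mdm2. The differences in r are therefore not read as traits of the genes.

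Of 45 further p53 targets, 39 were tested in total RNA and 37 in polysome RNA, and none was called over 10 mice by edgeR. Their median log2 difference was -0.04 in total RNA (all genes 0.01) and -0.13 in polysome RNA (all genes -0.01). At an unadjusted p under 0.05, 4 were lower and 0 higher in total RNA, and 5 were lower and 0 higher in polysome RNA. Of all genes, 487 of 13195 were lower and 654 higher at this cut in total RNA, and 695 of 13060 lower and 1060 higher in polysome RNA. limma-voom called none of them in either RNA, and DESeq2 called Plk3 in both.

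Plk3, a polo-like kinase of the stress response, was lower in polysome RNA of every SNORA73 LNA mouse. Its polysome RNA was 11.5, 9.05, 20.9, 6.08 and 13.2 CPM in GFP LNA mice 1, 2, 3, 8 and 9 and 3.94, 4.21, 3.39, 3.52 and 3.24 CPM in SNORA73 LNA mice 4, 6, 11, 12 and 10. All 5 SNORA73 LNA mice, mouse 10 included, were below all 5 GFP LNA mice, as were those of 1.09% of all genes tested. The polysome log2 difference was -1.73 ± 0.28 (SE), which missed the threshold by edgeR (adjusted p = 0.0649) and passed it by DESeq2 (-1.72, adjusted p = 2.32e-06), and over 8 mice it was -1.65 (edgeR, adjusted p = 0.0934). Its total RNA differed by -1.26 ± 0.264 (SE, adjusted p = 0.215), with 15, 6.53, 18.6, 8.59 and 14 CPM against 4.1, 5.64, 7.07, 4.99 and 4.38 CPM, where the groups overlapped by 1 mouse on each side.

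Gdf15, a hormone secreted by stressed cells, had the largest polysome difference of the list, -2.38 ± 0.858 (SE, edgeR adjusted p = 0.272), and 1 mouse made it. GFP LNA mouse 9 had 50.9 CPM and the other GFP LNA mice 1.9 to 4 CPM, against 1.7 to 3.3 CPM in SNORA73 LNA mice, and over the 8 mice the difference was -0.18 (adjusted p = 0.842). Pstpip2, an adaptor protein of the cytoskeleton, differed by -0.97 ± 0.304 (SE, adjusted p = 0.218) in polysome RNA. In the comparison of polysome with total RNA, 9 of the 39 tested were called higher and 15 lower (28.7% and 27% of all genes). With the replicate block 12 and 19 were called (33.1% and 32.2% of all genes). The largest differences were those of Kitl (stem cell factor) and the death receptor Tnfrsf10b, both lower on polysomes. Neither passed the filter in polysome RNA alone and Kitl was at 0 in 3 polysome libraries, so no fold is given for them. Polk, a DNA polymerase, differed by -1.08 ± 0.178 (SE, edgeR adjusted p = 2.3e-05).

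The messenger of p53 itself did not stand out. Trp53 was 7.23 to 10.5 CPM in total RNA of GFP LNA mice and 7.07 to 13.1 CPM in SNORA73 LNA mice, with the highest value in mouse 10, and its log2 difference was 0.15 ± 0.158 (SE) in total RNA and 0.03 ± 0.236 (SE, edgeR adjusted p = 0.97) in polysome RNA. Of 18 genes for p53 and its regulators, 16 were tested and none was called in total, polysome or interaction tests by edgeR or limma-voom. Before adjustment, 1 was higher and 2 lower at p under 0.05 in total RNA, and 3 higher and 1 lower in polysome RNA (shares of all genes at this cut are given above). DESeq2 called Rps7, a ribosomal protein that binds Mdm2, lower in total RNA. The polysome differences of largest size were those of the acetyltransferases Crebbp (0.70 ± 0.225 SE, adjusted p = 0.225) and Ep300 (0.46 ± 0.225 SE, adjusted p = 0.395) and of the deubiquitinase Usp7 (0.44 ± 0.127 SE, adjusted p = 0.185). Between polysome and total RNA, 2 of the 16 were called higher and 5 lower by edgeR (28.7% and 27% of all genes). With the replicate block 3 and 6 were called (33.1% and 32.2% of all genes). Those called by edgeR were led by Rpl5 (-0.73 ± 0.115 SE, adjusted p = 1.26e-05), a ribosomal protein that restrains Mdm2, Ep300 (-0.71 ± 0.14 SE, adjusted p = 0.000179) and Crebbp (0.67 ± 0.156 SE, adjusted p = 0.000948).

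Of 6 other inhibitors of cyclin-dependent kinases, 4 were tested and none was called between LNA groups by edgeR, limma-voom or DESeq2, with 0 at an unadjusted p under 0.05. Their polysome differences were 0.48 ± 0.245 (SE, edgeR adjusted p = 0.418) for Cdkn2d, -0.28 ± 0.254 (SE, adjusted p = 0.673) for Cdkn2c and -0.16 ± 0.216 (SE, adjusted p = 0.787) for Cdkn1b, the inhibitor p27. Between polysome and total RNA, Cdkn1b was lower (-1.84 ± 0.137 SE, adjusted p = 3.9e-10) and Cdkn2d higher (0.53 ± 0.149 SE, adjusted p = 0.00421), so the inhibitors did not share a loading.

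Of 21 proliferation genes, 17 were tested in total and 18 in polysome RNA, and none was called between LNA groups by any of the 3 tools. Their median polysome difference was -0.46 (all genes -0.01), and at p under 0.05 before adjustment 3 were lower and 0 higher, in total RNA too. At this cut 695 of all 13060 genes were lower in polysome RNA and 487 of 13195 in total RNA. Between the RNAs, 1 of 18 was called higher and 2 lower (28.7% and 27% of all genes). With the replicate block 2 and 5 were called (33.1% and 32.2% of all genes). Ccna2 (-0.78 ± 0.292 SE, edgeR adjusted p = 0.0273) and Mcm4 (-0.46 ± 0.189 SE, adjusted p = 0.0431) were lower on polysomes and Cdk1 (0.46 ± 0.179 SE, adjusted p = 0.0334) higher.

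Of 17 genes that answer to glucocorticoids or fasting, 16 were tested in each RNA and none was called between LNA groups over 10 mice by any of the 3 tools. The polysome differences of largest size were those of the metallothioneins Mt2 (2.02 ± 1.6 SE, edgeR adjusted p = 0.626) and Mt1 (1.89 ± 1.45 SE, adjusted p = 0.612) and of Cyp4a14 (-1.21 ± 0.766 SE, adjusted p = 0.529), a fatty acid hydroxylase. Mt2 differed by 1.99 ± 0.58 (SE, adjusted p = 0.175) and Mt1 by 1.54 ± 0.573 (SE, adjusted p = 0.274) over the 8 mice. At an unadjusted p under 0.05, 0 were higher and 1 lower in total RNA, and 0 higher and 2 lower in polysome RNA (counts of all genes at this cut are given above). Over the 8 mice 3 were higher and 2 lower in either RNA. Of all genes over the 8 mice, 916 of 13017 were higher and 658 lower at this cut in total RNA, and 1159 of 12825 higher and 635 lower in polysome RNA. Between polysome and total RNA, 1 of 17 was called higher and 5 lower by edgeR (28.7% and 27% of all genes). With the replicate block 4 and 10 were called (33.1% and 32.2% of all genes). Those called by edgeR were led by Sgk1 (-1.09 ± 0.197 SE, adjusted p = 6.49e-05), Zbtb16 (1.04 ± 0.246 SE, adjusted p = 0.00106) and Pdk4 (-0.79 ± 0.286 SE, adjusted p = 0.0236), a kinase that shuts off pyruvate use in fasting. Over the 8 mice, Irs2, the insulin receptor substrate that liver makes in fasting, was called lower in total RNA (-0.95 ± 0.162 SE, edgeR adjusted p = 0.0267). Its level was 10.8 to 17.1 CPM in the 4 GFP LNA mice and 6.69 to 9.38 CPM in the 4 SNORA73 LNA mice. Mouse 9, at 5.94 CPM, was the lowest of the 10 mice, as for Cdkn1a. Mouse 10, at 16.2 CPM, was the highest of its own group but within the range of the GFP LNA mice, unlike for Cdkn1a. Irs2, like Rps7 above, was singled out after its values were seen.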

How the data were processed

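Total RNA and polysome RNA of 10 mouse livers (5 per LNA) were sequenced after poly(A) selection. Per the study's methods, the authors trimmed reads with fastp at a Phred score of 15 and quantified them with kallisto 0.46.2 on Ensembl release 102 (build GRCm38). They deposited gene-level estimated counts, not normalized, in a table in which every column belonged to a sample (0 columns without one). Symbols were matched for 51903 of 53028 gene IDs.

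Estimated counts were rounded. Genes with more than 0.5 CPM in at least 4 libraries were tested by edgeR 4.0.16 (quasi-likelihood F-test, TMM scaling, R 4.3.3) with Benjamini-Hochberg adjustment over all genes. Total and polysome RNA were each fitted over 10 mice, and both together for the RNA by LNA interaction and for polysome against total RNA. Levels are shares of a library, and precision follows the depth given above. Correlations used log2(CPM + 0.5) and 1e+05 permutations, two-sided. The fits were tested on simulated data with true log2 differences of 1. They recovered 72.6% of the changed genes in total RNA, 47.4% in polysome RNA, 27.4% in the interaction and 79.6% between polysome and total RNA. False calls numbered 9, 7, 1 and 9. A log2 difference of 1 can thus be missed, above all in polysome RNA and in the interaction. Alternatives were the 8 mice, limma 3.58.1 (voom, with and without quality weights), DESeq2 1.42.0, RLE scaling, library totals, no filter, one fit of all libraries, a replicate block and leaving out each mouse. The replicate number is the mouse, which links the 2 libraries of a liver. Their deviations from the group means correlated at 0.144 to 0.694 in all 10 pairs.

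The 10 genes and all lists were chosen with earlier results of these data known. Every member is named, and from each list every gene called where at most 5 were, otherwise the 3 largest changes among those called, plus the 3 largest in polysome RNA (not for proliferation), and the 10 protein-coding genes with a mean of at least 2 CPM most correlated with Cdkn1a.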

Additional observations from a re-analysis of the deposited data

Results flagged for a closer look

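In 6 of 40 groups of 5 mice a single mouse stood apart from the others by Dixon's criterion (gap over range above 0.71), which chance gives in about 1 group in 20. SNORA73 LNA mouse 10 stood apart for Cdkn1a in total RNA, at 35.2 CPM (next mouse 9.75 CPM, gap 0.835 of the range), and in polysome RNA, at 36.5 CPM (next 12.1 CPM, 0.799). The same mouse stood apart for Eda2r in total RNA, at 0.704 CPM (next 0.208 CPM, 0.759). SNORA73 LNA mouse 6 stood apart in polysome RNA for Trp53inp1, at 37.4 CPM (next 15.8 CPM, 0.732), and for Phlda3, at 0.581 CPM (next 0.328 CPM, 0.879). GFP LNA mouse 1 stood apart for Gadd45a in polysome RNA, at 18.1 CPM (next 5.85 CPM, 0.844).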

How the results depend on the processing

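Counts of calls moved with the mice, the tool and the fit. In total RNA 4 genes were called over 10 mice, 93 over the 8, 42 with voom quality weights, 57 by DESeq2, 2 with library totals, 13 without the filter, and 96 by limma-voom on the 8 mice, a setting added after seeing the data. Leaving out each mouse gave 1 to 59, the highest without GFP LNA mouse 9. In polysome RNA the count was 2, and 31 over the 8 mice, 112 with quality weights, 267 by DESeq2, 0 with library totals, 72 without the filter, 296 in one fit of all libraries and 28 by limma-voom on the 8 mice (also added). Leaving out each mouse gave 0 to 17. The interaction called 1 gene, and 0 over the 8 mice, with voom or with quality weights, 7 by DESeq2, 1 with the replicate block, and 0 with the replicate block over the 8 mice (added). Polysome against total RNA called 7683 genes, 9007 with the replicate block and 7147 to 7734 without each mouse. Pairing by the replicate block changed no other call of the 10 genes than that of Gadd45a, and its counts for the other lists are given above. Library totals moved the median of all genes to -0.14 in total and -0.17 in polysome RNA.

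The correlation of Eda2r with Cdkn1a lost its adjusted significance in polysome RNA (0.38) and after centring (0.80). That of Trp53inp1 turned to 0.42 over the 8 mice, and that of Phlda3 to 0.49 over the 8 mice and 0.14 in polysome RNA. Small differences turned sign as follows, and the cause was not tested. Gadd45a turned to 0.014 with voom, 0.144 with quality weights and 0.012 with voom on the 8 mice in total RNA, and to 0.099, 0.273 and 0.028 in polysome RNA. Ccng1 in polysome RNA turned to 0.002 with voom and 0.012 with quality weights, and Trp53inp1 to 0.137 over the 8 mice. In the interaction, Mdm2 turned to -0.018 over the 8 mice and -0.01 with the block on them, Gadd45a to 0.096 with voom, 0.107 with quality weights and 0.05 with the block, and Btg2 to 0.061 with quality weights. Btg2 between the RNAs turned to -0.006 over the 8 mice, -0.015 by DESeq2, -0.005 with RLE, 0 without the filter, -0.019 with the block and -0.05 with the block on the 8 mice.

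Leaving out each mouse, total RNA differences ranged from -1.071 (without SNORA73 LNA mouse 10) to 0.019 for Cdkn1a, -0.167 to 0.007 for Ccng1, -0.171 to 0.015 for Bax, -0.353 to 0.376 for Gadd45a and -0.209 to 0.11 for Sesn2. Polysome differences ranged from -0.816 (without SNORA73 LNA mouse 10) to 0.196 for Cdkn1a, -0.081 to 0.094 for Ccng1, -0.516 to 0.13 for Trp53inp1 and -0.355 to 0.515 for Gadd45a. Interactions ranged from -0.196 to 0.04 for Btg2, -0.057 to 0.104 for Mdm2, -0.036 to 0.142 for Ccng1, -0.114 to 0.462 for Trp53inp1, -0.206 to 0.139 for Gadd45a and -0.254 to 0.029 for Sesn2. Polysome against total RNA ranged from -0.002 to 0.061 for Cdkn1a and -0.049 to 0.084 for Btg2. Plk3 in polysome RNA ranged from -1.90 to -1.44 (adjusted p from 0.026 to 0.151) and was called without GFP LNA mouse 8, by DESeq2, without the filter (adjusted p = 0.00266) and in one fit of all libraries (adjusted p = 0.0061). Low counts limit the precision for Phlda3 and Eda2r.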
